A study of Mus musculus with 31 samples.

Results

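The genes described here are 10 temperature-responsive genes of the mouse brain: the cold-inducible RNA-binding protein genes Cirbp and Rbm3, the heat shock transcription factor gene Hsf1, and the chaperone genes Hspa1a, Hspa1b, Hspa8, Hsph1, Dnajb1, Hsp90aa1 and Hspb1. They were taken by symbol from a table of 48795 genes, and all 10 were found and passed the filter on low counts that left 19529 genes for testing. Total RNA from mouse brain had been sequenced in 31 libraries, 13 labelled control and 18 labelled deltamethrin, in a study of exposure during development. Deltamethrin, a pyrethroid, is an insecticide whose main target is the sodium channel of nerve cells. The labels name the tissue as brain, with aliquots taken from homogenised tissue, and give no strain, sex, age, dose, litter, time of collection or batch. Nothing in them says that the samples came from separate animals, so the p-values measure the spread between these samples.

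Cells answer a fall in temperature by raising CIRBP and RBM3, which bind RNA and affect the stability, splicing and translation of transcripts. They answer heat and misfolded protein through HSF1, which binds heat shock elements and switches on chaperones. Cold-inducible and heat-inducible transcripts also follow the daily cycle of body temperature in opposite directions, which links both groups to circadian rhythm, and Cirbp is known to affect clock transcripts. In neurons, the constitutive HSC70 (Hspa8) and the stress-inducible HSP90 alpha (Hsp90aa1) are abundant also at rest. The inducible HSP70 genes Hspa1a and Hspa1b are low at rest.

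Library totals ran from 17570311 to 38680621 counts, with a median of 30662621. The 2 mitochondrial ribosomal RNA genes mt-Rnr1 and mt-Rnr2 together took 7.32% to 40.2% of a library's counts. Control replicate 2 stood apart, with the lowest total and the highest mitochondrial share. Leaving it out moved the median log2 fold change of the members from -0.026 to -0.054. Markers of neurons, astrocytes, oligodendrocytes and microglia were all detected, as the label brain requires. Because bulk tissue was measured, fewer cells of a type and less RNA per cell cannot be told apart.

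None of the 10 genes passed the test of a difference between deltamethrin and control. No gene of the 19529 had an adjusted p-value under 0.05 (0% called; the smallest adjusted p-value, by edgeR's quasi-likelihood test with Benjamini-Hochberg adjustment, was 0.441). At an unadjusted p-value under 0.05, 0 of the 10 members were called, beside 853 genes or 4.37% of all genes tested. DESeq2 and limma voom also gave 0 genes at an adjusted p-value under 0.05, with 986 and 847 genes at an unadjusted one. The log2 fold changes of the members, deltamethrin over control, ran from -0.16 to 0.09. Of these, 3 were positive and 7 negative, with a median of -0.026 beside 0.0014 over all genes. The 2 cold-inducible genes had the lowest values, and Hsph1, Hsp90aa1 and Hspa8 had the 3 positive ones. Below, levels are in CPM, the usual per-library scaling of counts, on library sizes corrected by trimmed mean of M-values (TMM) factors, ± is the standard deviation over libraries of a group unless it follows a log2 fold change, where it is the standard error, and intervals are 95%.

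**Figure D1:**
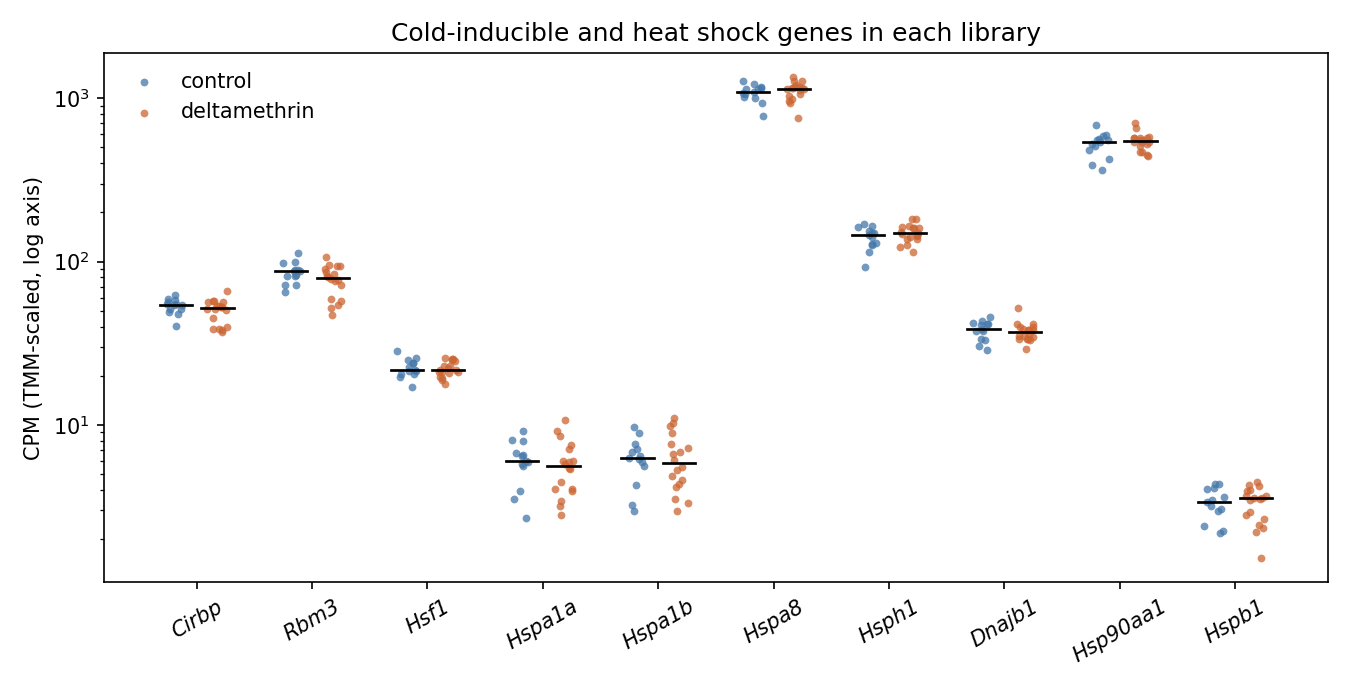
CPM of the 10 genes (log axis) in 13 control (blue) and 18 deltamethrin (orange) libraries, each point 1 library and each black line a group's median. The groups overlap for every gene, and 5 deltamethrin points lie below all control points for Rbm3 and for Cirbp.

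**Figure D2:**
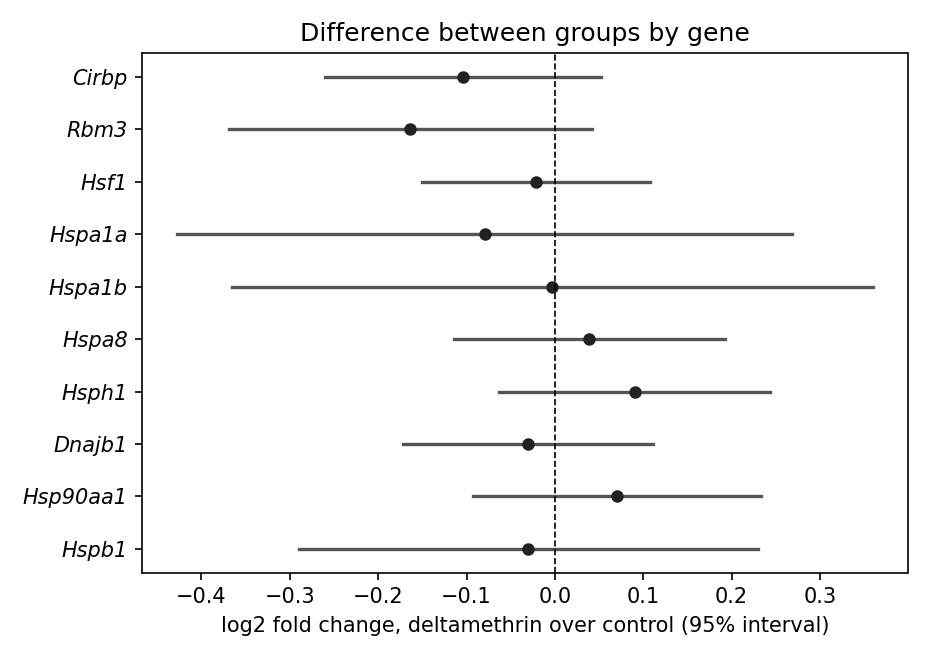
Log2 fold change of each gene, deltamethrin over control (point), with its 95% interval (line) from edgeR's quasi-likelihood fit. All 10 intervals include 0, and those of Hspa1a and Hspa1b are the widest.

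Levels were set per kilobase of annotated exon to compare genes, and the members differed widely. The length used merges all annotated exons of a gene and can exceed that of a transcript. It was 7099 bases for Hsf1 and 1031 for Hspb1, whose longest coding transcripts have 2104 and 930. For Hsph1 these lengths were 7266 and 3802 bases, and for Rbm3 4698 and 2792. Sequence shared with other genes was not left out. The order below holds for this length, and orders by transcript length were not computed. Hspa8 was highest at 255 ± 31.1 CPM per kilobase (n = 31), followed by Hsp90aa1 at 136 ± 19.3. Hsph1 (20.1 ± 2.75), Cirbp (19.7 ± 2.87) and Rbm3 (17.2 ± 3.37) came next, and Dnajb1 stood at 11.7 ± 1.56. Hsph1 and Cirbp could not be ordered, since Hsph1 was the higher in only 16 of 31 libraries. Cirbp exceeded Rbm3 in 27 of 31 libraries although their ranges overlapped. By this length the lowest 4 were Hspb1 (3.22 ± 0.756), Hsf1 (3.13 ± 0.363), Hspa1b (2.24 ± 0.798) and Hspa1a (1.98 ± 0.679). Hspb1 and Hsf1 could not be ordered by it either, with Hspb1 the higher in 17 of 31 libraries. Gaps without overlap of the ranges lay, by the same length, between Hsp90aa1 and Hsph1 and between Dnajb1 and Hspb1.

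Rbm3 lies on the X chromosome (chrX:8138975-8145880, minus strand, GRCm38) and encodes a glycine-rich RNA-binding protein that supports protein synthesis and synapse maintenance in the cold. Its level in the controls had a lowest value of 64.6, a median of 87.4 and a highest of 113 CPM, and in the deltamethrin libraries 47.1, 79.2 and 107 CPM. The ranges overlapped, but 5 of 18 deltamethrin libraries fell below every control and none rose above the highest. Group means were 85.9 ± 12.9 (n = 13) and 76.7 ± 16.9 CPM (n = 18), a log2 fold change of -0.16 ± 0.10 (interval -0.37 to 0.04). The unadjusted p-value was 0.114 and the adjusted p-value 0.813 by edgeR's quasi-likelihood test. The annotation places an antisense gene, Rbm3os, over Rbm3, and use of strand in counting is not given in the sources used here, so reads of the pair cannot be told apart. A processed pseudogene, Rbm3-ps, shares 11.5% of the 50-base words of Rbm3 and held counts equal to 1.79% of those of Rbm3.

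Cirbp (chr10:80165985-80172786, plus strand) encodes the closest relative of RBM3 in this set, known to shift poly(A) site use in clock transcripts and so to influence the amplitude of the rhythm. Controls ran from 40.4 to 62.2 CPM with a median of 54.4, and deltamethrin libraries from 36.8 to 65.9 with a median of 51.9. Again 5 of 18 deltamethrin libraries lay below every control, and 1 lay above. The means were 53.5 ± 5.63 and 49.8 ± 8.36 CPM, a log2 fold change of -0.10 ± 0.08 (interval -0.26 to 0.05; unadjusted p = 0.186, adjusted p = 0.813, edgeR). Within groups the coefficient of variation was 10.5% in controls and 16.8% in deltamethrin libraries for Cirbp, and 15.01% and 22.1% for Rbm3. A difference in spread between the groups was not tested.

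The 5 libraries below every control were the same for both genes: deltamethrin replicates 1, 2, 3, 6 and 7. Their Rbm3 levels were 52.1, 54.3, 57.0, 58.9 and 47.1 CPM, in that order, and their Cirbp levels 38.9, 38.1, 39.8, 36.8 and 38.6 CPM. The other 13 deltamethrin libraries held Rbm3 at 71.4 to 107 and Cirbp at 44.9 to 65.9 CPM, inside the control range except for 1 library that exceeded every control for Cirbp. These 5 libraries carry the numbers 1, 2, 3, 9 and 12 in the labels, which number all 31 samples and do not say what the number stands for. Ranked from the lowest of 31 libraries, their mitochondrial rRNA shares stood at 2, 5, 9, 24 and 6 and their totals at 29, 20, 31, 18 and 9. Their mean log2 CPM over 7 brain endothelium markers stood at 30, 31, 25, 26 and 29, all in the upper part. Over 5 astrocyte markers the ranks were 29, 31, 30, 15 and 28, so that 4 of the 5 libraries, at 7.73 to 8.13, lay above every other library (highest 7.67). Over 4 microglia markers they were 28, 30, 25, 14 and 29, and over 4 oligodendrocyte markers they were 6, 31, 5, 7 and 2. The part of cell composition in the low levels was not tested.

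Across all 31 libraries Cirbp and Rbm3 had a Pearson r of 0.770 (Spearman rho 0.565) in log2 CPM (adjusted permutation p = 8.64e-05 for r and 0.00617 for rho). Within the 13 controls alone, which hold none of the 5 low libraries, r was 0.618, within the 18 deltamethrin libraries it was 0.789, and after group and mitochondrial share were removed it was 0.831. Over the 26 libraries other than the 5 low ones r was 0.357 and rho 0.271. Those 5 were picked by the levels of these same genes, so leaving them out lowers r by construction and is no test. Every r of Rbm3 or Cirbp given below without these 5 libraries only describes the other 26 and is no test either. Rbm3 ranked 173 from the top among 19528 genes by r with Cirbp, so many other genes followed Cirbp as closely. By r with Rbm3, Cirbp ranked 636, and 5.71% of all genes had an r as large in size. The 2 genes most like Cirbp over the 31 libraries were Nob1, an endonuclease of ribosome maturation (r = 0.872), and Idh3b, a subunit of a mitochondrial dehydrogenase (r = 0.870). For Rbm3 they were Nudt16, an RNA decapping enzyme gene (r = 0.910) and Ttc1 (r = 0.905). Counts of Rbm3 per count of Cirbp, a ratio free of any scaling, stayed between 1.22 and 2.09 in all libraries.

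A short stretch from Cirbp is shown because it holds the letters TCCCCGCC, a motif described as a mild cold response element. RefSeq promoter windows of GRCm38.p6 were searched over the 250 bases before each start, on both strands, and 6 of the 10 members had such a window. TCCCCGCC occurred in 4.64% of all 32851 windows. In Cirbp it lay 247 to 240 bases before a RefSeq start, in capitals here (chr10:80167589-80167618, plus strand). The GENCODE M21 gene begins further out and includes this stretch.
Cirbp: ctgTCCCCGCCtcctagtcgctagcgggcg

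Hsf1 (chr15:76477422-76501913, plus strand) encodes the factor that trimerises on heat shock and binds inverted repeats of GAA. Its transcript ranged from 17.1 to 28.2 CPM in controls (median 21.6) and from 17.9 to 25.8 in deltamethrin libraries (median 21.7). All 18 deltamethrin libraries lay within the control range. Group means were 22.4 ± 2.90 and 22.1 ± 2.40 CPM, a log2 fold change of -0.02 ± 0.06 (interval -0.15 to 0.11; unadjusted p = 0.741, adjusted p = 0.940, edgeR), and -0.011 without control replicate 2. It was the steadiest member, with a biological coefficient of variation of 12.2%, at percentile 15.6 of the genes tested. HSF1 is controlled mainly at the protein level, which these data do not measure. Whamm (r = 0.823) and Anks3 (r = 0.821) had the patterns most like it. With Cirbp, r was 0.453 (adjusted permutation p = 0.0301), rho 0.377 (adjusted p = 0.0985), and r 0.361 over the 26 libraries without the 5 low ones.

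Hspa1a (chr17:34969190-34972156) and Hspa1b (chr17:34956436-34959238), both on the minus strand, encode the heat-inducible HSP70, which refolds damaged proteins. They were the most variable members, with biological coefficients of variation of 32.2% and 33.7%, at percentiles 87.4 and 89.0 of the genes tested. Hspa1a had a lowest, median and highest level of 2.69, 5.99 and 9.14 CPM in controls and 2.81, 5.59 and 10.7 CPM in deltamethrin libraries. For Hspa1b these were 2.99, 6.30 and 9.67 CPM in controls and 2.97, 5.84 and 11.1 CPM in deltamethrin libraries. The groups covered nearly the same range. Means were 6.03 ± 1.85 and 5.76 ± 2.17 CPM for Hspa1a and 6.26 ± 1.96 and 6.30 ± 2.47 CPM for Hspa1b. Log2 fold changes were -0.08 ± 0.17 for Hspa1a (interval -0.43 to 0.27; unadjusted p = 0.645, adjusted p = 0.920, edgeR) and -0.0030 ± 0.18 for Hspa1b (interval -0.37 to 0.36; unadjusted p = 0.987, adjusted p = 0.998, edgeR). The sign for Hspa1b turned with upper quartile factors, with no scaling, with no count filter and in DESeq2, so it has no direction. Without control replicate 2 the values were -0.14 for Hspa1a and -0.053 for Hspa1b. These intervals are wide, and counts were low, from 29 to 431 for Hspa1a and from 35 to 447 for Hspa1b.

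The pair shares much of its transcript sequence, so the counts of each are uncertain: 58.8% of the 50-base words of Hspa1a and 62.3% of those of Hspa1b occur in the other gene. Gm20481, annotated over Hspa1a on the opposite strand, had 0 counts in every library. The share of Hspa1a in the summed CPM of both genes stayed between 44.4% and 54.1% in all libraries. Their summed level ran from 5.78 to 21.7 CPM, with the highest in deltamethrin replicate 11 and the lowest in deltamethrin replicate 4. Hspa1a and Hspa1b had the highest r of any pair of members, 0.971 (rho 0.967), and each was the other's closest gene. Among other genes, Hspa1a was most like Eftud2 (r = 0.948), a spliceosome GTPase, and Gne (r = 0.946), an enzyme of sialic acid synthesis. Hspa1b was most like Sin3b (r = 0.950), a transcriptional corepressor, and Slc22a17 (r = 0.938).

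The 250 bases upstream of both genes are shown because the copies share them and because they hold the letters of a minimal heat shock element. The windows are identical at 247 of 250 positions (98.8%), aligned without gaps. Capitals mark GAANNTTC, found 104 to 97 bases before the start, and GGCGGGGA, which is TCCCCGCC on the other strand, 137 to 130 bases before it. GAANNTTC occurred in 6.69% of all 32851 windows, TTCNNGAA in 7.17% and either in 12.8%. The 3-unit heat shock element, which adds a further GAA unit in alternating direction, occurred on either strand in 0.466% and in no window of a member. A match of letters does not show binding. The windows are chr17:34972157-34972406 for Hspa1a and chr17:34959239-34959488 for Hspa1b, minus strand.
Hspa1a: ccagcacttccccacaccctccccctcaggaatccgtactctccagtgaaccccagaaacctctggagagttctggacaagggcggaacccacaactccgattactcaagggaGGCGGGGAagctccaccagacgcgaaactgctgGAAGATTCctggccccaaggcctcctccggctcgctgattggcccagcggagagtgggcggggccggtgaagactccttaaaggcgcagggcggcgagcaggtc
Hspa1b: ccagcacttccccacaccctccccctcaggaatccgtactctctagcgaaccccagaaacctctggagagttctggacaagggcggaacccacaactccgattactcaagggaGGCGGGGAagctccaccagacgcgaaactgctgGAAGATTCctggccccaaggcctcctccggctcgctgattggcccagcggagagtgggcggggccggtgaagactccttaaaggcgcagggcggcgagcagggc

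Hspa8 (chr9:40800984-40810087, plus strand) encodes HSC70, the constitutive HSP70 that uncoats clathrin vesicles and folds new proteins. It stood at percentile 99.8 of the genes tested by abundance. Controls ran from 781 to 1268 CPM with a median of 1089.8, and deltamethrin libraries from 752 to 1344 with a median of 1143. Within the control range lay 15 of 18 deltamethrin libraries. The means were 1080.3 ± 128 and 1109.8 ± 139.9 CPM, a log2 fold change of 0.04 ± 0.08 (interval -0.11 to 0.19; unadjusted p = 0.609, adjusted p = 0.912, edgeR). Without control replicate 2 the log2 fold change was 0.0029. Other genes share its sequence: Gm15459, a processed pseudogene, and Gm26825, annotated as a lincRNA, share 70.0% and 69.0% of its words yet held under 0.01% of its counts, and Gm8355 (46.0%) held 2.40%. Small nucleolar RNA genes Snord14c, Snord14d and Snord14e lie inside Hspa8 on the same strand. Gars, the glycyl-tRNA synthetase gene (r = 0.958), and Atp6v1b2, a vesicular proton pump subunit (r = 0.942), were most like it.

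Hsph1 (chr5:149614287-149636376, minus strand) encodes HSP110, the nucleotide exchange factor that recharges HSP70. The controls had a lowest, median and highest level of 92.7, 145 and 169.9 CPM, and the deltamethrin libraries 115, 149 and 182 CPM. The lowest was control replicate 2, and 2 deltamethrin libraries exceeded every control. Means of 140.5 ± 21.9 and 149.7 ± 18.1 CPM gave a log2 fold change of 0.09 ± 0.08 (interval -0.06 to 0.24; unadjusted p = 0.239, adjusted p = 0.821, edgeR). Without control replicate 2 it was 0.05. Cstf2t, a polyadenylation factor gene (r = 0.956), and Osbp, an oxysterol-binding protein gene (r = 0.949), were most like it.

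A stretch at the 5′ end of Hsph1 is shown for its match to TTCNNGAA, in capitals, 33 to 26 bases before a RefSeq start (chr5:149636351-149636380, minus strand). The GENCODE M21 gene begins further out, so the match lies inside the gene by that annotation.
Hsph1: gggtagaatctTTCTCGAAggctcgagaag

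Dnajb1 (chr8:83608193-83612653, plus strand) encodes HSP40, the J-domain protein that hands clients to HSP70 and holds HSF1 in check. It ranged from 28.7 to 45.9 CPM in controls (median 38.4) and from 29.3 to 52.2 in deltamethrin libraries (median 36.8), with 17 of 18 inside the control range. The log2 fold change was -0.03 ± 0.07 (interval -0.17 to 0.11; unadjusted p = 0.664, adjusted p = 0.924, edgeR), and -0.055 without control replicate 2. Group means were 38.0 ± 5.21 and 37.3 ± 4.95 CPM. None of its pairs with another member had an adjusted p-value of r under 0.05. Dnajb1 was most like Svop, a synaptic vesicle protein gene (r = 0.798), and Ier5, an immediate early gene (r = 0.793). With Fos, the immediate early gene induced by neuronal firing, r was 0.680 (rho 0.643, permutation p = 2e-05, adjusted over 95 relations 0.000146). Dnajb1 ranked 31 from the top of 19529 genes by r with Fos. The relation was 0.699 within controls, 0.678 within deltamethrin libraries, 0.663 after group and mitochondrial share were removed, and 0.514 without the 2 libraries farthest from the median. No GAANNTTC, TTCNNGAA or TCCCCGCC lay in the 250 bases before either RefSeq start of Dnajb1. Of these stretches, 1 (chr8:83607925-83608174) holds annotated exon of Tecr. The other (chr8:83608298-83608547) lies inside Dnajb1 itself and holds its exon, so it is not upstream of the gene.

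Hsp90aa1 (chr12:110690605-110702728, minus strand) encodes the stress-inducible HSP90 alpha, which matures kinases and steroid receptors. Controls had a lowest, median and highest level of 362, 537 and 681 CPM, and deltamethrin libraries 443, 546 and 707 CPM. All but 1 deltamethrin library lay within the control range. Means of 519 ± 87.6 and 545 ± 66.6 CPM gave a log2 fold change of 0.07 ± 0.08 (interval -0.09 to 0.23; unadjusted p = 0.385, adjusted p = 0.850, edgeR), and 0.03 without control replicate 2. The gene most like it was Gm12346 (r = 0.950), a transcribed processed pseudogene that shares 51.5% of its words and held 9.15% as many counts. Its likeness therefore cannot be told apart from reads of Hsp90aa1 itself.

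Hspb1 (chr5:135887919-135889563, plus strand) encodes HSP25, a small heat shock protein that holds unfolded proteins and is found in glia and vessels. It was the least abundant of the 10 in CPM, with 26 to 173 counts a library. Controls ran from 2.19 to 4.35 CPM (median 3.37) and deltamethrin libraries from 1.54 to 4.46 (median 3.56). The means were 3.34 ± 0.760 and 3.30 ± 0.815 CPM. The log2 fold change was -0.03 ± 0.13 (interval -0.29 to 0.23; unadjusted p = 0.816, adjusted p = 0.958, edgeR), and -0.058 without control replicate 2. Hsp25-ps1, a processed pseudogene, and Gm9817, annotated as protein coding, share 51.6% and 43.2% of its words and held 0.796% and 0.980% as many counts. Chst8 (r = 0.823) and Tns2 (r = 0.789), a focal adhesion gene, were most like it.

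The window upstream of Hspb1 (chr5:135887669-135887918, plus strand) is shown because it holds GAANNTTC at 2 places, 117 to 110 and 97 to 90 bases before the start, in capitals.
Hspb1: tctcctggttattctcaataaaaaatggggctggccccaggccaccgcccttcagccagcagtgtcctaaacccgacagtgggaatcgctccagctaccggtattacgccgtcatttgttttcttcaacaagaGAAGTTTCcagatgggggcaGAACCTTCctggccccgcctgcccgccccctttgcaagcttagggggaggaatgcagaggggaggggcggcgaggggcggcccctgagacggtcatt

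Across libraries Hspa1a, Hspa1b, Hspa8, Hsph1 and Hsp90aa1 moved together, and Hsph1, Hsp90aa1 and Hspa8 moved against Rbm3. Several of these relations were much weaker after group and mitochondrial rRNA share were removed, as given below. Of 45 pairs of members, 19 had an adjusted permutation p-value of Pearson's r under 0.05, 15 positive and 4 negative. Adjustment was over all 95 relations computed (two-sided, 100000 resamples, so no p-value below 1e-05 is possible). The share of all gene pairs that would pass was not computed, so 19 of 45 does not set the members apart. Of all genes, 36.2% had an r with Hsp90aa1 as large in size as that of Hspa1b. For Hspa1a this was 28.4%, but for Hsph1 it was 0.0666%. The highest r of a pair after the Hspa1 pair was that of Hsph1 with Hsp90aa1, 0.913 (rho 0.892, adjusted permutation p = 8.64e-05). Hsph1 ranked 13 of 19528 genes by r with Hsp90aa1. Their ratio of counts stayed between 0.234 and 0.301 in all 31 libraries. Hspa8 had r = 0.840 with Hsph1, 0.819 with Hspa1a and 0.781 with Hsp90aa1. Hspb1 went with Hspa1b (r = 0.607) and Hspa1a (0.575), and less closely with Hspa8 (0.516, rho 0.398 with an adjusted p of 0.0739).

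The 4 negative pairs were Rbm3 with Hsph1 (r = -0.619, rho -0.616, adjusted p = 0.00151), Rbm3 with Hsp90aa1 (-0.602, adjusted p = 0.0016), Rbm3 with Hspa8 (-0.429, adjusted p = 0.0450) and Hsf1 with Hsp90aa1 (-0.529, adjusted p = 0.00737), all by permutation. Over the 26 libraries without the 5 low ones, Rbm3 had r = -0.569 with Hsph1, -0.542 with Hsp90aa1 and -0.507 with Hspa8. Since Rbm3 levels helped to pick those 5, these values are no test. Over all libraries without scaling factors, the r of Rbm3 was -0.067 with Hsph1 (adjusted permutation p = 0.791), -0.124 with Hsp90aa1 and 0.011 with Hspa8. Hsf1 with Hsp90aa1 was 0.299 there. The 4 negative relations were thus seen with TMM factors and not with no factors. Other scaling factors were not tried for the correlations. By rho, Hsf1 with Hsp90aa1 was -0.389, with an adjusted p of 0.0803. A ratio of counts within a library needs no scaling: Rbm3 per Hsph1 count ran from 0.286 in deltamethrin replicate 1 to 1.07 in control replicate 2, a 3.74-fold range. By group that ratio was 0.635 ± 0.191 in controls and 0.530 ± 0.173 in deltamethrin libraries. Genes with a strong r of either sign were common here: 23.2% of all genes had an r with Rbm3 as large in size as that of Hsph1.

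**Figure D3:**
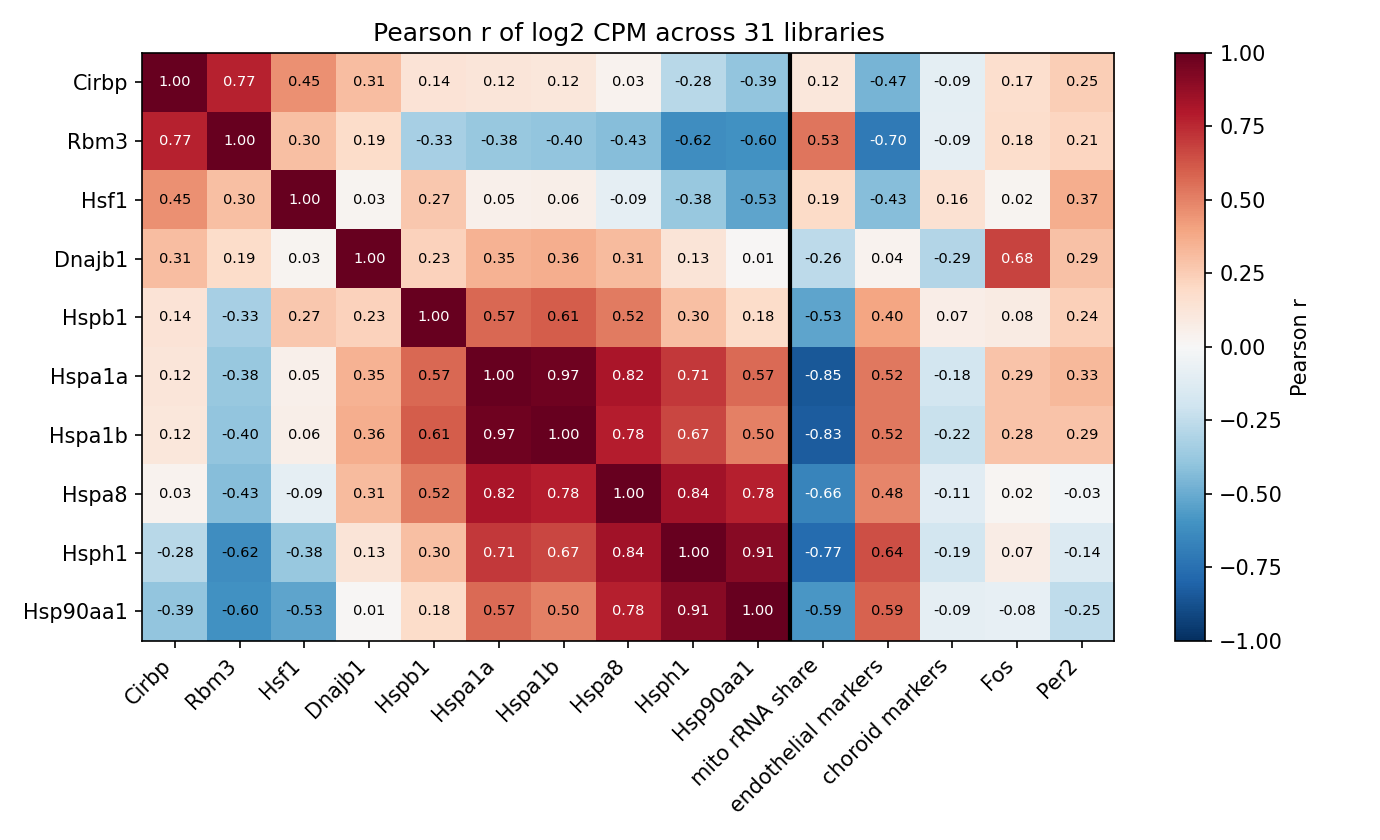
Pearson r of log2 CPM over 31 libraries, for the 10 members (rows) with each other (left of the line) and with 5 library measures (right). Red is positive and blue negative; Hspa1a, Hspa1b, Hspa8, Hsph1 and Hsp90aa1 form a red block, and Rbm3 is blue against all 5.

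**Figure D4:**
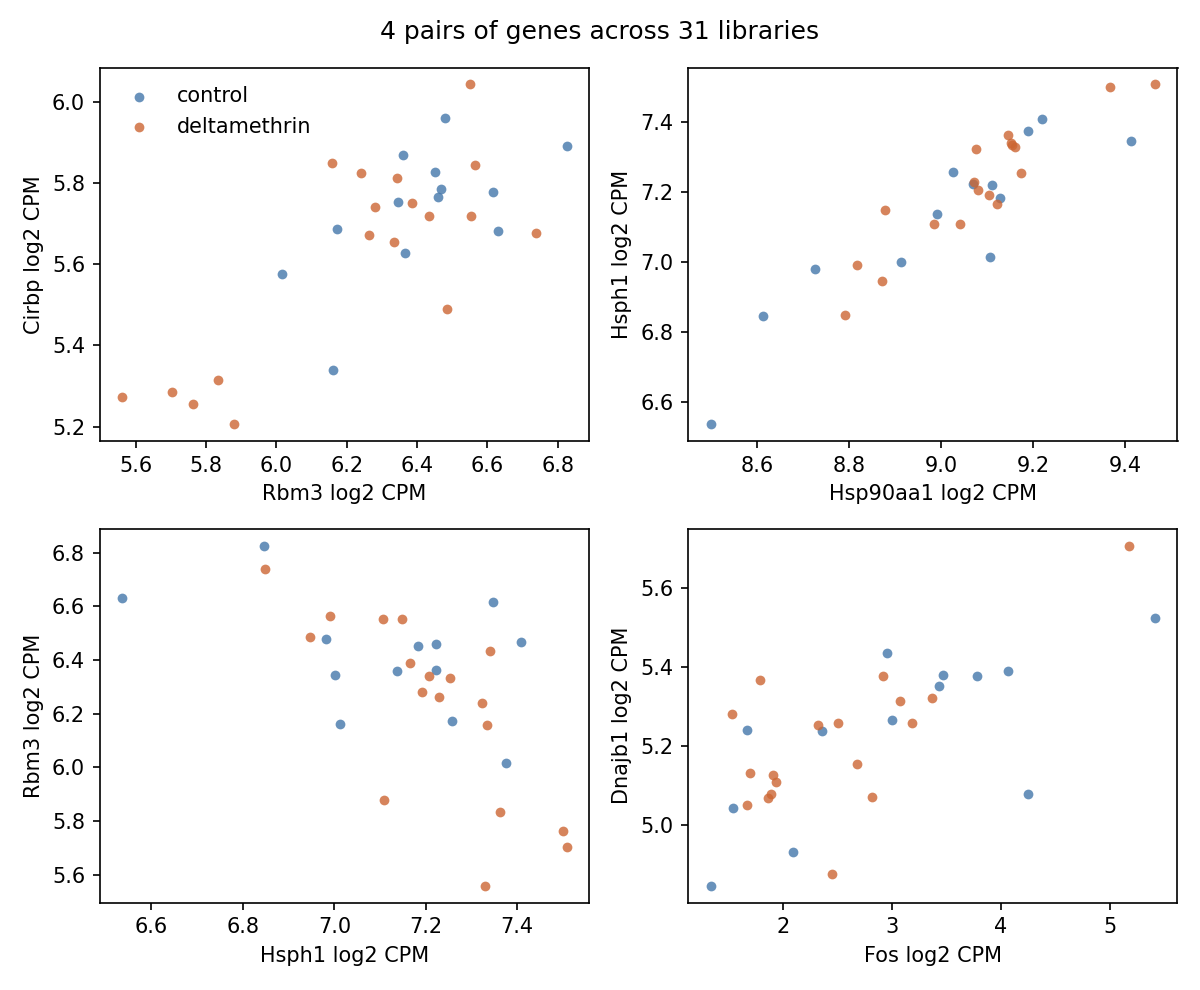
Log2 CPM of 4 pairs of genes in 31 libraries, control blue and deltamethrin orange. The 5 deltamethrin libraries at the lower left of the Cirbp and Rbm3 panel are the 5 below every control, and Hsph1 follows Hsp90aa1 in both groups.

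The mitochondrial rRNA share of the library moved with most of these genes, and with many genes outside the list. Its log2 value had r = -0.845 with Hspa1a (rho -0.834), -0.834 with Hspa1b, -0.769 with Hsph1, -0.664 with Hspa8, -0.585 with Hsp90aa1 and -0.528 with Hspb1, and 0.535 with Rbm3 (adjusted permutation p from 8.64e-05 to 0.00833). Cirbp (0.117), Hsf1 (0.194) and Dnajb1 (-0.259) had adjusted p-values of r above 0.05. In controls alone the value for Hspa1a was -0.938, and in deltamethrin libraries alone it was -0.811. Hspa1a stood at percentile 3.88 of all genes by this r, and 6.99% of all genes had an r as large in size. That percentage was 8.36% for Hspa1b, 15.7% for Hsph1 and 27.6% for Hspa8. It was 36.0% for Hsp90aa1, 41.7% for Rbm3 and 42.3% for Hspb1, so an r of that size was common. Removing group and this share left r = 0.276 for Hspa1a with Hsph1 (0.710 before), 0.893 for Hsph1 with Hsp90aa1 (0.913 before) and -0.325 for Rbm3 with Hsph1. It left 0.226 for Hspa1a with Hsp90aa1 (0.565 before), 0.13 for Hspa1b with Hsph1 (0.669 before) and 0.055 for Hspa1b with Hsp90aa1 (0.5 before). Hspa8 kept 0.691 with Hspa1a, 0.576 with Hspa1b, 0.70 with Hsph1 and 0.65 with Hsp90aa1. Rbm3 was left at -0.390 with Hsp90aa1 and -0.101 with Hspa8, and Hspb1 at 0.27 with Hspa1a and 0.345 with Hspa1b. For Rbm3 the r with the share was 0.454 without the 5 low libraries and 0.122 without scaling factors. The genes behind the share passed no test between groups: mt-Rnr2 had an unadjusted p of 0.201 and mt-Rnr1 of 0.278 (adjusted p 0.815 and 0.824, edgeR). Its part in the levels of the chaperones was not tested.

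**Figure D5:**
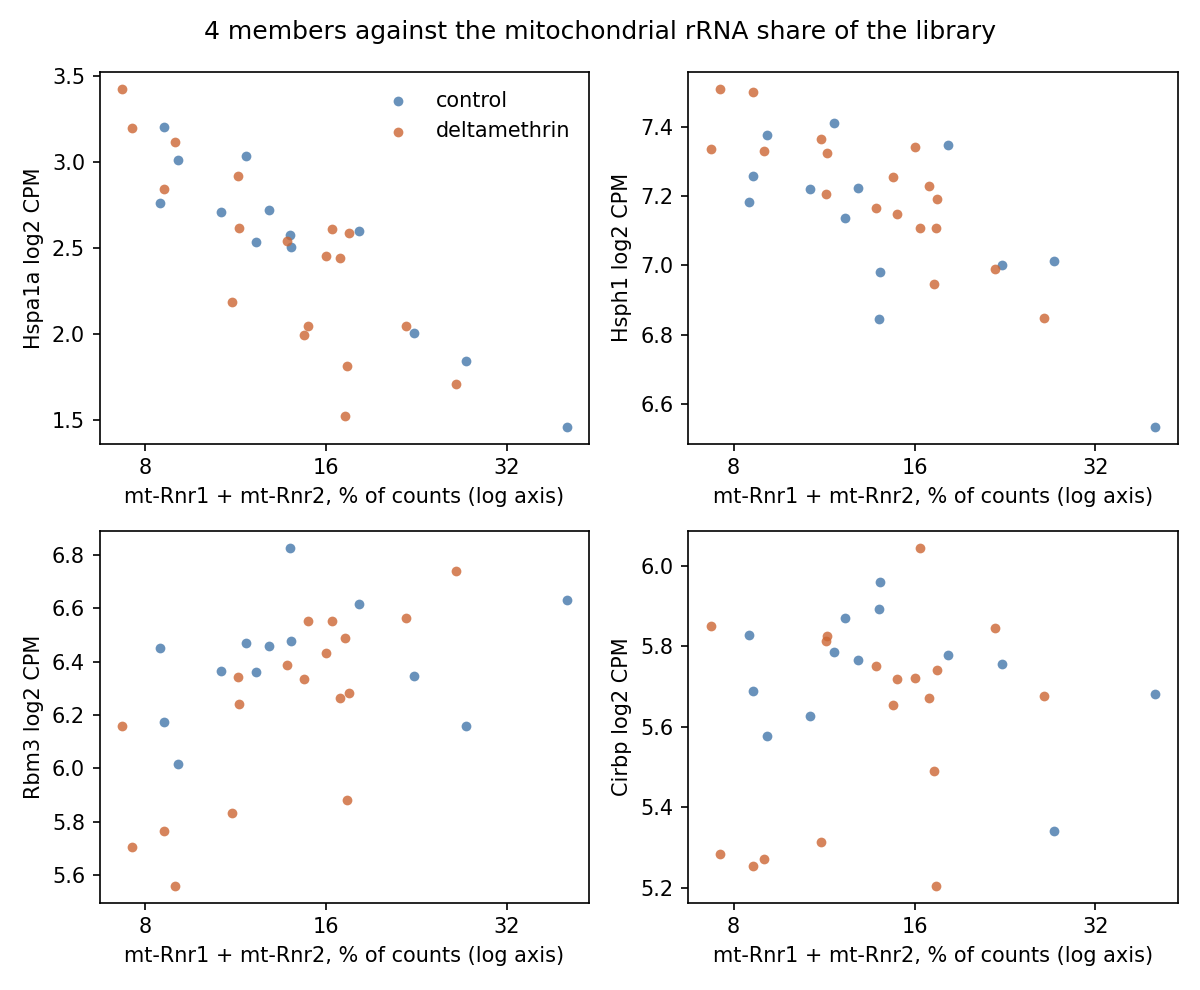
Log2 CPM of Hspa1a, Hsph1, Rbm3 and Cirbp against the percent of counts from mt-Rnr1 and mt-Rnr2 (log axis) in 31 libraries, control blue and deltamethrin orange. Hspa1a and Hsph1 are lower at a high share, Rbm3 is higher (r = 0.535), and the point at 40.2% is control replicate 2.

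The level of brain endothelium markers moved with most members too, but Dnajb1 (r = 0.037) and Hspb1 (0.396) had adjusted permutation p-values above 0.05. Cirbp (r = -0.468) and Hsf1 (-0.429) were under 0.05 by r, but their adjusted permutation p of rho was 0.140 and 0.0612. With no scaling factors both r were positive, as given in the last section. Within controls r was 0.082 for Cirbp and -0.341 for Rbm3, and within deltamethrin libraries -0.674 and -0.855. All 7 markers were detected, 6 were higher in deltamethrin libraries by their estimates, and only Cldn5, a tight junction gene, had an unadjusted p-value under 0.05 (log2 fold change 0.21 ± 0.07, p = 0.00407, adjusted p = 0.813, edgeR). Their mean log2 CPM ran from 3.64 to 4.30 in controls and from 3.70 to 4.46 in deltamethrin libraries. With Rbm3 it had r = -0.704 (adjusted permutation p = 0.000146) over all libraries and -0.374 without the 5 low ones. With Hsph1 it had r = 0.642, and 0.143 after group and mitochondrial share were removed. That removal left -0.185 for Hspa1a (0.525 before), -0.0063 for Hspa8 (0.484 before) and -0.513 for Rbm3. The percentage of all genes with an r as large in size as that of the member was 9.46% for Rbm3 and 18.3% for Hsph1. It was 34.4% for Hspa1a and 41.55% for Cirbp. Choroid plexus markers were lower by their estimates in 10 of 10 genes, 3 with an unadjusted p under 0.05, among them Ttr (log2 fold change -0.46 ± 0.21, unadjusted p = 0.0360, adjusted p = 0.813, edgeR). No member had an adjusted p-value under 0.05 for its r with these. Some other marker lists leaned one way by their estimates, with 0 genes at an unadjusted p under 0.05: astrocyte markers were higher in 5 of 5 (median log2 fold change 0.20), cerebellum markers higher in 6 of 6 (0.27), striatum markers lower in 6 of 6 (-0.16) and red blood cell markers lower in 5 of 5 (-0.29). Neuron and oligodendrocyte markers were split, with 2 higher and 2 lower in each list. Of 4 microglia markers 3 were higher and 1 lower. The lower one was Tmem119 (log2 fold change -0.15 ± 0.06, unadjusted p = 0.0117, adjusted p = 0.813, edgeR). Over all genes tested, 4.37% had an unadjusted p under 0.05. The part of the marker lists in the levels of the members was not tested.

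Other genes of the same pathways, from lists chosen with earlier results of these data known, gave 1 call between groups at an unadjusted p under 0.05. Of all genes tested, 4.37% were called at that threshold. Of 21 other heat-inducible chaperone and stress genes, 0 had an unadjusted p under 0.05, with a median log2 fold change of 0.04. Bag3, a co-chaperone of HSP70 among them, stood at 0.22 ± 0.15 (unadjusted p = 0.144, adjusted p = 0.813, edgeR). Of 26 further chaperones and heat shock factors 25 could be tested and 0 passed, with Hsf2 at 0.10 ± 0.05 (unadjusted p = 0.077, adjusted p = 0.813, edgeR). The 9 cold-linked and cold shock domain genes gave 0 as well. Of 4 other temperature-linked rhythm genes, 1 was lower at an unadjusted p under 0.05. That was Per2, a clock gene that also carries heat shock elements, with 26.7 ± 4.71 CPM in controls and 20.9 ± 2.10 in deltamethrin libraries. Its log2 fold change was -0.35 ± 0.07 (unadjusted p = 2.26e-05, adjusted p = 0.441, edgeR), and it was the gene with the smallest p-value of all tested. No member had an adjusted p-value under 0.05 for its r with Per2.

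Chaperones outside the 10 did not all follow Hsph1. The median r with Hsph1 was 0.339 over the 21 heat-inducible genes, 16 of them positive, beside -0.011 over all genes. Hsp90ab1, the constitutive HSP90 beta, was highest at 0.874, and Hspe1, the mitochondrial HSP10, was lowest at -0.782. Hspe1 had r = 0.761 with Rbm3 and 0.897 with the mitochondrial rRNA share. In the other lists the median r with Hsph1 was 0.267 over 25 further chaperones and heat shock factors. It was 0.047 over the 9 cold-linked and cold shock domain genes and 0.576 over the 4 temperature-linked rhythm genes. A positive median was thus not particular to the heat-inducible list.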

How the data were processed

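Total RNA libraries of mouse brain, 13 control and 18 deltamethrin, were grouped by their agent label. The authors deposited raw counts per gene, whole numbers with no normalization. Per the submitters' processing notes, Trimmomatic, HISAT2, SAMtools and MultiQC were used with GRCm38. The counting tool, annotation and use of strand are not given in the sources used here. Gene positions are those of GENCODE M21 (GRCm38), matched for 48349 of 48795 IDs. Sequences are from RefSeq promoter windows of GRCm38.p6, and shared words are exact 50-base words of M21 transcripts.

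Genes were filtered with filterByExpr of edgeR 4.0.16 (R 4.3.3; minimum count 10, minimum total 15), libraries were scaled by TMM, and groups were compared with the quasi-likelihood F-test, with no covariates and Benjamini-Hochberg adjustment over all 19529 genes. Standard errors were derived from F and the fold change. Log2 CPM used a prior count of 2. Correlations across libraries were tested by two-sided permutation with 100000 resamples and adjusted over 95 relations. The fit and the correlations were tested on simulated data. Alternatives of the fit were other scaling factors, filters and tools (DESeq2 1.42.0, limma 3.58.1), a mitochondrial rRNA covariate, and each library left out. The correlations were repeated with no scaling factors and with a prior count of 0.5.

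Named genes are the 10 members, the 2 non-members with the highest r with each (for Hsp90aa1 only 1 is reported here), genes of the pathway and marker lists (up to 3 of each with an unadjusted p under 0.05), and Per2, Fos, Ttr, Cldn5 and the mitochondrial rRNA genes. Bag3, Hsf2, Hspe1 and Hsp90ab1 were named after their values were seen. The members and lists were chosen with earlier results of these data known. Kinase activity measurements were not analysed here.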

Additional observations from a re-analysis of the deposited data

How the results depend on the processing

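No gene had an adjusted p-value under 0.05, and no member an unadjusted one, in any of 11 alternatives or in the 31 fits that left out 1 library. The smallest unadjusted p of a member was 0.0524, for Rbm3 without deltamethrin replicate 8. Genes with an unadjusted p under 0.05 numbered 853, but 1796 with the log2 mitochondrial rRNA share as a covariate and 1948 with no count filter. That number was 526, 552 and 560 without control replicate 10, deltamethrin replicate 3 or control replicate 11, and 1283, 1338, 1346, 1383 and 1389 without deltamethrin replicate 10, control replicates 4 or 7, or deltamethrin replicates 8 or 9. Cirbp, Rbm3, Hspa1a, Hspa8, Hsph1 and Hsp90aa1 kept their sign throughout. With no scaling factors, where the median of all genes moved to 0.043, log2 fold changes were 0.028 for Hsf1, 0.022 for Hspa1b, 0.0030 for Dnajb1 and 0.0036 for Hspb1, and the median of the members was 0.013. Hspa1b was at 0.0033 with upper quartile scaling, 0.0069 in DESeq2 and 0.00067 when no gene was filtered out. Over the fits that left out 1 library, Hspa1b ran from -0.064 to 0.073, Hspb1 from -0.070 to 0.014, Hsf1 from -0.049 to 0.011 and the median of the members from -0.061 to 0.0019. Correlations with an adjusted p under 0.05 rose from 35 to 58 of 95, and pairs of members from 19 to 34 of 45, with no scaling factors. There r turned to 0.011 for Rbm3 with Hspa8, 0.299 for Hsf1 with Hsp90aa1, and 0.229 and 0.347 for Cirbp and Hsf1 with endothelium markers. The cause was not tested. Without the 5 libraries low in Rbm3 and Cirbp, an alternative chosen after seeing the data, r was 0.133 for Cirbp with endothelium markers and 0.361 for Cirbp with Hsf1. No paired analysis was possible because the labels give no replicate numbers shared between groups. Library totals limit Hspa1a, Hspa1b and Hspb1 most, with under 100 counts in some libraries.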
